A study of Mus musculus with 15 samples.

Results

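The left ventricle of infarcted mice given GSK-343, an inhibitor of the histone methyltransferase EZH2, was compared with that of infarcted mice given vehicle. The comparison took 10 of the 15 poly-A RNA sequencing libraries of the series, 5 named GSK and 5 named MI, as the sample names assign them. All mice were female, of the C57BL/6JRj strain and 12 to 18 weeks old, and the labels name no engineered allele. In the MI group the left descending coronary artery was ligated permanently and the vehicle alone, 20% Captisol (a cyclodextrin that dissolves the drug), was injected into the abdominal cavity. In the GSK group GSK-343 was injected in the same vehicle at 20 mg/kg, from 6 h after surgery and then daily until day 7. Ventricles of all groups were taken on day 8. The GSK sample names give the compound only, and that these hearts were infarcted was taken from the treatment protocol. The other 5 libraries, named Sham, come from mice given the same vehicle alone on the same schedule. They are given only side by side as the level of hearts without ligation, and 2 of them each mix the RNA of 2 animals. No library of the series is labelled as a sham heart given GSK-343, and the size of the infarcts was not analysed here. The sample names give the tissue as left ventricle only, so how much scar, border zone and surviving muscle each library holds is not known.

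EZH2 is the catalytic subunit of Polycomb repressive complex PRC2, which places methyl groups on a lysine of histone H3 (the mark H3K27me3) and keeps developmental genes silent. EED and SUZ12 are the partners without which the enzyme is inactive, and EZH1 is a second, weaker catalytic subunit that is prominent in tissues whose cells no longer divide. GSK-343 competes with the methyl donor in the enzyme's active site, so it acts on the enzyme's activity rather than on the Ezh2 transcript. The infarcted heart in its second week is known for a scar built by activated fibroblasts, for macrophages that clear debris, and for surviving cardiomyocytes that turn down fatty acid use and re-express fetal genes.

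The unit throughout is FPKM, fragments per kilobase of gene length, on a scale set by the authors for each library. The 10 libraries held 21.5 to 24.7 times 1000000 fragments on genes. A gene was tested where it reached 1 FPKM in at least 5 of the 10 libraries, which 12151 of 54532 genes did, and differences are GSK minus MI on the log2(FPKM + 1) scale, a scale that compresses the change of weakly expressed genes. Markers of ventricular muscle were high in every library: Myl2, the ventricular light chain, stood between 1373 and 2921 FPKM in MI and between 1540.0 and 2727 FPKM in GSK. Markers of atrial tissue were uneven, with Myl7 at 3.89 FPKM in MI replicate 3 and 3.35 FPKM in MI replicate 5 against 54.9 to 402 FPKM in the other 3 MI libraries and 91.4 to 270 FPKM in GSK. The share of FPKM on mitochondrially encoded genes was 27.6%, 27.5%, 26.0%, 40.6% and 23.2% in MI replicates 1 to 5 and 31.8%, 31.9%, 46.4%, 48.7% and 32.7% in GSK replicates 1 to 5. The group means were 29.0% ± 6.74 (SD, n = 5) and 38.3% ± 8.49 (SD, n = 5). The test did not separate the groups (exact two-sided permutation p = 0.111, adjusted over 3 library measures 0.333, smallest p the design allows 0.00794). Only MI replicate 4 reached the GSK range, however, and every GSK library lay above the rest of MI. Without MI replicate 4 the difference was 12.2 points, with an unadjusted exact permutation p under 0.05. The share thus nearly followed the groups. By this share MI replicate 4 and GSK replicates 3 and 4 lay above the rest of their groups, and results are given with and without them. The 5 Sham libraries stood at 41.2% to 42.2%, near MI replicate 4 and below GSK replicates 3 and 4. A high share is therefore named only relative to the group. Values without these 3 libraries, or with the share as a covariate, are alternatives and not corrections. GSK replicates 3 and 4 were also the closest pair among replicates, although they differed by more than sampling noise.

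**Figure D1:**
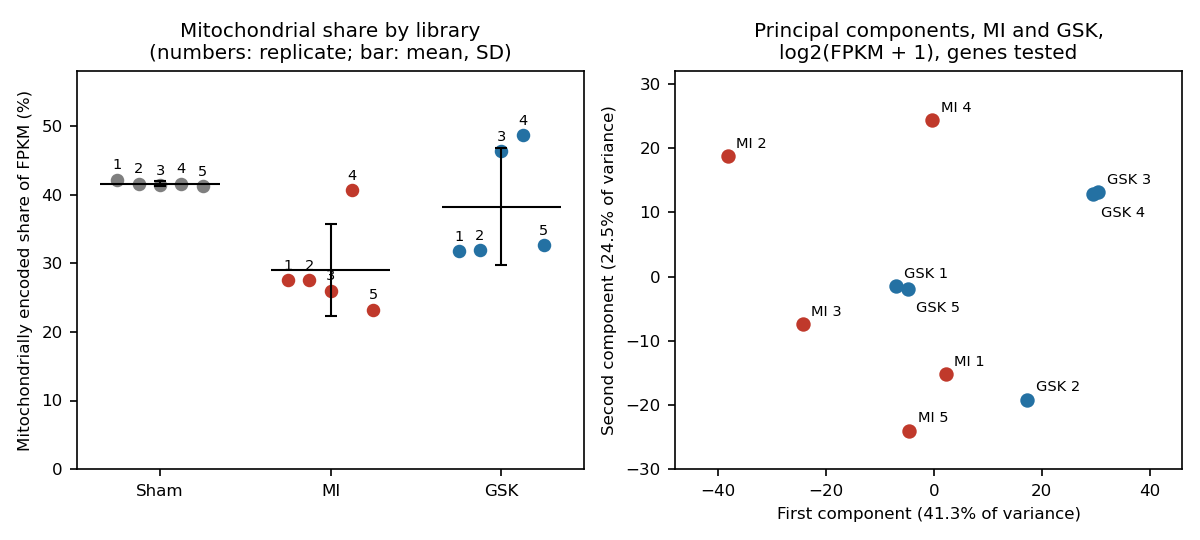
Left, the share of FPKM on mitochondrially encoded genes (%) in each library, with the mean and SD of each group of 5. MI replicate 4 sits at 40.6% and GSK replicates 3 and 4 at 46.4% and 48.7%, apart from the rest of their groups. Right, the 10 MI and GSK libraries on the first and second principal components, which hold 41.3% and 24.5% of the variance: GSK replicates 2, 3 and 4 lie at the right, and GSK replicates 1 and 5 lie among the MI libraries.

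On the first principal component GSK replicates 2, 3 and 4 lay at 17.3, 30.5 and 29.5, and MI replicates 2 and 3 at the other end, at -38.3 and -24.3. GSK replicates 1 and 5 lay at -7.07 and -4.89, between MI replicates 4 and 3. The 2 groups therefore overlapped along the main axis of variation, and many of the values that follow repeat this order of libraries.

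No gene passed the test. By limma with Benjamini-Hochberg adjustment over the 12151 genes, 0 genes were called (0%), and the smallest adjusted p was 0.285. At an unadjusted limma p under 0.05 there were 920 genes higher in GSK (7.57%) and 887 lower (7.3%), together 14.9% of the genes tested. Without any difference a threshold of 0.05 gives 5% on average. Genes vary together between libraries, however, so 5% is no firm yardstick here, and the excess over it was not tested. The 5 GSK libraries lay wholly above the 5 MI libraries for 138 genes (1.14%) and wholly below them for 107 genes (0.881%). With the Sham libraries added to the fit, which lends their smaller spread, limma called 4 genes higher and 0 lower, and these were Ctf1, Zbtb20, Tnrc6b and the predicted gene Gm48483 (limma adjusted p = 0.0485 for each). With the mitochondrial share as a covariate limma called a single gene higher, the ribosomal protein pseudogene Rpl7a-ps5, whose difference without the covariate was -0.31. Without MI replicate 4 and GSK replicates 3 and 4, limma called 0 genes, and 391 were higher and 248 lower at an unadjusted p under 0.05. Of the genes at that p, 50.9% were the higher ones in all 10 libraries, 61.2% without the 3 libraries, 60.5% with the covariate and 60.6% with mitochondrially encoded genes left out and the totals made equal. The values that follow therefore describe levels and how far the libraries of the groups overlap. Counts of list members at an unadjusted p under 0.05 are to be read beside the 7.57% higher and 7.3% lower over all genes. Where the 3 libraries are left out, they are to be read beside the general fall to 391 and 248 genes.

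Ctf1 had the lowest p of the 12151 genes. It encodes cardiotrophin 1, a cytokine of the interleukin 6 family that signals through gp130 and is known to make cardiomyocytes grow and survive. The gene lies on chr7:127712736-127718192 (plus strand, build mm10). Its FPKM was 1.86, 1.45, 1.58, 1.44 and 1.25 in the MI libraries and 2.5, 3.27, 3.16, 3.88 and 2.44 in the GSK libraries. Every GSK library lay above every MI library. The means were 1.52 ± 0.223 (SD, n = 5) and 3.05 ± 0.596 (SD, n = 5), with 3.75 ± 0.492 (SD, n = 5) in Sham, and the difference on the log2(FPKM + 1) scale was 0.68 with a standard error of 0.11 (limma adjusted p = 0.285). It was 0.56 without the 3 libraries of high mitochondrial share, and between 0.61 and 0.73 with any 1 library left out.

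Socs3 stood at the other side of the same pathway. It encodes the inhibitor that STAT3 induces and that shuts off gp130 receptors, and it lies on chr11:117966079-117970047 (minus strand, mm10). Its FPKM was 5.58, 11.7, 8.41, 6.73 and 12.2 in MI and 4.76, 3.25, 2.2, 2.48 and 4.59 in GSK. No GSK library reached the lowest MI library, and GSK replicates 3 and 4 stood at the Sham level of 2.35 ± 0.145 (SD, n = 5). Its log2 difference was -1.14 with a standard error of 0.23 (limma adjusted p = 0.285), and -0.97 without the 3 libraries of high mitochondrial share. The 250 bases before the start of each of these genes, from RefSeq on GRCm38.p6, are shown (the RefSeq start of Socs3 lies inside the span given above) because Polycomb complexes are known to settle at promoters rich in CG pairs and these promoters differ in that respect. CG pairs are in capitals.

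Ctf1, chr7:127712453-127712702, plus strand: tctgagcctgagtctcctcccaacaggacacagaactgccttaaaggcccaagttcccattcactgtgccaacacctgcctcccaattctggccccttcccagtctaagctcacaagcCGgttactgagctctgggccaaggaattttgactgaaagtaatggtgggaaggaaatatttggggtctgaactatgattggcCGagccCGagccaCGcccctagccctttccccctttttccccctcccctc
Socs3, chr11:117969367-117969616, minus strand: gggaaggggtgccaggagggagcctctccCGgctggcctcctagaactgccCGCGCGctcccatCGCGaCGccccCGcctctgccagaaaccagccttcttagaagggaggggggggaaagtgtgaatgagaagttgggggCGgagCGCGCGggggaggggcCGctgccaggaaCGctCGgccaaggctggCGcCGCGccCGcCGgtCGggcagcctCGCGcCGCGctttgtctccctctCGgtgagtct

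The Ctf1 stretch holds 4 CG pairs and the Socs3 stretch 26. Over the 8913 tested genes with an entry the median was 16 CG pairs, over the 101 entries among genes without overlap and higher in GSK it was 17, and over the 78 entries among those without overlap and lower it was 16. The number of CG pairs thus did not separate the genes on either side. The motif TTCNNNGAA, the letters STAT factors are known to read, is its own reverse complement and was searched in the same 250 bases. It occurs 1 time in the Socs3 stretch and 0 times in the Ctf1 stretch, and it is held by 2.97% of the promoters of the higher genes, by 8.97% of those of the lower genes, by 5.67% of all tested genes with an entry and by 7.18% of the 27025 promoters of the table. A match of letters is a description of the sequence and not a binding site.

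The interleukin 6 family list, which holds Ctf1 and Socs3 themselves, had members on both sides. Of 18 genes on the list 13 were tested, and 2 stood higher and 2 lower at an unadjusted p under 0.05. This was 15.4% each way, beside 7.57% and 7.3% of all genes. Ctf1 was 1 of the 2 higher and Socs3 1 of the 2 lower. Both were named above for their values, so these shares are no separate result about the other members. The median log2 difference was 0.05 beside -0.00 over all genes. The shared receptor Il6st, which encodes gp130, stood at 21.8 ± 1.74 FPKM (SD, n = 5) in MI and 23.5 ± 1.47 FPKM (SD, n = 5) in GSK. Lifr, the second chain of the cardiotrophin receptor, ran from 2.33 to 3.38 FPKM in MI and from 3.02 to 4.59 FPKM in GSK (log2 difference 0.27). Il6 itself was below the level of testing, at most 1.16 FPKM in MI and at most 0.487 FPKM in GSK, and Stat3 stood at 23.9 ± 2.82 FPKM (SD, n = 5) and 21.1 ± 1.82 FPKM (SD, n = 5).

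Zbtb20, a zinc finger repressor of transcription on chr16:42875881-43642602 (plus strand, mm10), had the second lowest p. Its FPKM was 6.32, 4.67, 4.21, 4.56 and 4.86 in MI and 7.64, 8.16, 10.6, 11.2 and 7.7 in GSK, beside 12.2 ± 1.44 (SD, n = 5) in Sham. The groups did not overlap, and the 2 GSK libraries of high mitochondrial share were the highest. The difference on the log2 scale was 0.76 with a standard error of 0.13 (limma adjusted p = 0.285), and 0.56 without the 3 libraries of high mitochondrial share. Tnrc6b, a scaffold of microRNA silencing complexes, stood between 2.02 and 2.56 FPKM in MI and between 2.96 and 3.66 FPKM in GSK.

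Cpxm2, a secreted protein related to carboxypeptidases, had a GSK mean that did not lie between the means of MI and Sham. Its FPKM was 5.38, 4.13, 6.09, 6.05 and 5.15 in MI and 9.06, 9.25, 8.86, 9.46 and 6.79 in GSK, a log2 difference of 0.61 with a standard error of 0.11 (limma adjusted p = 0.285). All 5 GSK libraries lay above the Sham mean of 6.08 ± 2.77 FPKM (SD, n = 5), but Sham was split. The mixed Sham replicates 1 and 2 stood at 9.21 and 8.70 FPKM, inside the GSK range, and the other Sham libraries at 3.01 to 5.40 FPKM. The log2 difference was 0.60 without the 3 libraries of high mitochondrial share.

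The other coding genes without overlap that stood highest in GSK by log2 difference were mt-Nd3 (1.36), a subunit of respiratory complex I, the predicted gene Gm10031 (0.72), Klhdc1 (0.73), the muscle protein Txlnb (0.68), Arhgap20 (0.66), the cyclic AMP phosphodiesterase Pde7b (0.62), the predicted gene Gm3646 (0.61), the mineralocorticoid receptor Nr3c2 (0.58) and the ubiquitin ligase subunit Gid4 (0.57). For 8 of these 9 the Sham mean was higher still than the GSK mean: mt-Nd3, for instance, ran from 79.2 to 134 FPKM in MI and from 168 to 458 FPKM in GSK, and averaged 484 FPKM in Sham. Nr3c2 ran from 0.916 to 1.79 FPKM in MI and from 1.84 to 4.06 FPKM in GSK, so that the highest MI and the lowest GSK library nearly touched. Gm10031 averaged 7.25 FPKM in Sham, below every GSK library, although Sham replicate 4 at 9.72 FPKM exceeded GSK replicate 1 at 8.77 FPKM. Gm3646 and Gm10031 have near copies elsewhere in the genome, so their fragments may be divided with those copies.

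**Figure D2:**
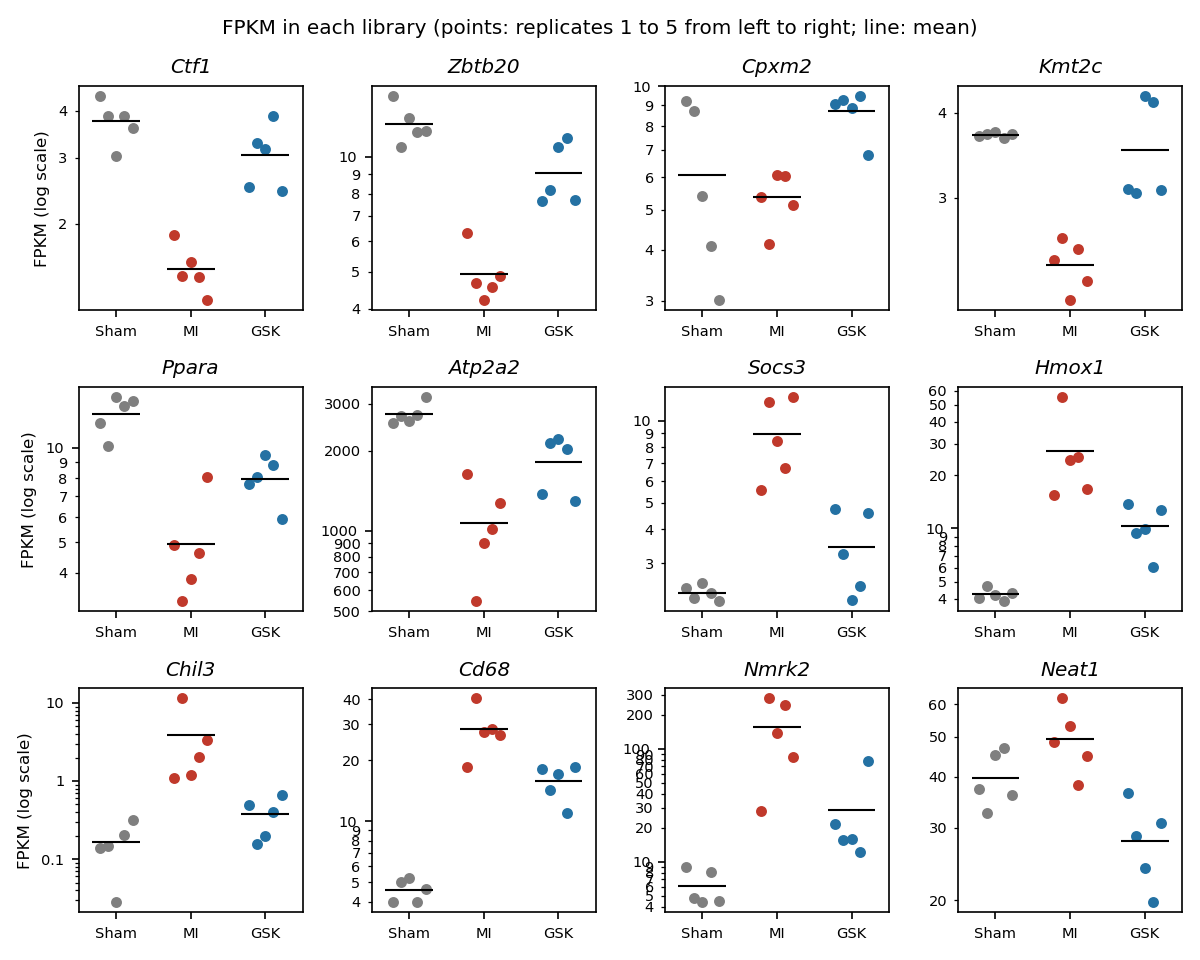
FPKM on a log axis in each of the 15 libraries for 12 genes, with points for replicates 1 to 5 from left to right and a line at the group mean. Ctf1, Zbtb20, Cpxm2 and Kmt2c show 5 GSK libraries above 5 MI libraries, and Socs3, Hmox1, Chil3 and Neat1 show the reverse, while Ppara, Atp2a2, Cd68 and Nmrk2 overlap through MI replicates 1 or 5 and GSK replicates 1 or 5.

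Chil3 had the lowest difference among coding genes without overlap. It encodes a chitinase-like protein that macrophages secrete after interleukin 4, and lies on chr3:106147554-106167564 (minus strand, mm10) beside close relatives, so its fragments may be shared with them. Its FPKM was 1.1, 11.5, 1.21, 2.02 and 3.37 in MI and 0.492, 0.154, 0.195, 0.399 and 0.652 in GSK. The groups did not overlap, and MI replicate 2 stood far above the others. All MI libraries and no GSK library reached 1 FPKM, so the gene entered the test only through the group where it is high. This gave a log2 difference of -1.47 with a standard error of 0.41 (limma adjusted p = 0.285), and -1.03 without MI replicate 2. As in any tissue RNA, fewer cells of a type and less RNA per cell cannot be told apart.

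Hmox1, which degrades heme and is high in macrophages that have taken up red cells, stood at 15.5, 55.1, 24.4, 25.3 and 16.8 FPKM in MI and at 13.7, 9.42, 9.97, 6.09 and 12.7 FPKM in GSK. Every GSK library was below every MI library and above the Sham mean of 4.25 ± 0.328 FPKM (SD, n = 5). The log2 difference was -1.22 with a standard error of 0.31 (limma adjusted p = 0.285), and -0.93 without MI replicate 2. Plaur, the receptor that gathers urokinase at the surface of migrating cells, ran from 2.45 to 6.11 FPKM in MI and from 1.25 to 2.24 FPKM in GSK, and Galns, a lysosomal sulfatase, from 3.89 to 6.38 FPKM and from 2.28 to 3.85 FPKM.

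The other coding genes without overlap that stood lowest or had the lowest p have varied roles. Srm, spermidine synthase, ran from 10.5 to 17.9 FPKM in MI and from 7.5 to 10.5 FPKM in GSK, narrowly without overlap. Grwd1, a histone chaperone of ribosome assembly, had a log2 difference of -0.57, and Aprt, which salvages adenine, had -0.68. Upp1, which splits uridine, had -0.51. Ipo4, an importin that carries histones and ribosomal proteins into the nucleus, ran from 4.67 to 6.53 FPKM in MI and from 3.55 to 4.05 FPKM in GSK (log2 difference -0.50). Haus7, a subunit of the augmin complex of the spindle, Plk3, a stress kinase, and Fxyd7, a subunit of the sodium pump, had log2 differences of -0.56, -0.54 and -0.55. Hdac6, the deacetylase of tubulin, had a log2 difference of -0.36 with little spread, from 3.92 to 4.69 FPKM in MI and from 3.01 to 3.47 FPKM in GSK. Fxyd7 averaged 1.84 FPKM in Sham, above every GSK library. It ran from 1.16 to 2.13 FPKM in MI but stood below 1 FPKM in GSK replicates 1, 2 and 4, at 0.895, 0.605 and 0.470. Its direction was therefore partly set by the filter.

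In a set of 131 genes drawn up for naming, all kept their sign under quantile normalization, 129 kept it without the 3 libraries of high mitochondrial share and 124 with that share as a covariate. Of these genes 78 overlap another annotated gene, Ctf1 and Zbtb20 among them. The strand setting of the counting is not given in the sources used here, so fragments from such a partner cannot be told apart.

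The transcripts of the drug's target complex differed little. Of 13 PRC2 genes 11 were tested, with a median log2 difference of 0.03. At an unadjusted p under 0.05, 1 of them stood higher (9.09%, near the 7.57% of all genes) and 0 lower. Ezh2 stood at 1.46, 1.38, 1.22, 1.35 and 1.68 FPKM in MI and at 1.2, 1.35, 1.4, 1.23 and 1.31 FPKM in GSK, beside 0.992 ± 0.127 (SD, n = 5) in Sham. The groups overlapped fully, with a log2 difference of -0.07 and a standard error of 0.08 (limma adjusted p = 0.653). Ezh1 stood at 6.43, 5.29, 5.4, 5.62 and 4.77 FPKM in MI and at 5.9, 6.64, 7.2, 6.65 and 6.12 FPKM in GSK, a log2 difference of 0.21 (limma adjusted p = 0.315). Since FPKM is per length, Ezh1 can be said to have been the higher of the catalytic subunits in all 10 libraries. MI replicate 1 lay inside the GSK range for Ezh1.

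Among the other core subunits the log2 difference was -0.01 for Eed and 0.24 for Suz12, whose 3 highest libraries were those of high mitochondrial share, MI replicate 4 at 7.59 FPKM and GSK replicates 3 and 4 at 8.84 and 9.08 FPKM. With that share as a covariate the value for Suz12 was -0.08. The histone-binding subunits Rbbp4 and Rbbp7 had log2 differences of 0.02 and 0.03, which turned to -0.06 and -0.14 with the covariate. Of the accessory subunits, Jarid2, which recruits the complex, had 0.18, Lcor 0.23, Mtf2 0.12, Aebp2 0.02 and Phf1 -0.08. Phf19 and Epop did not reach the level for testing and averaged 0.794 and 0.349 FPKM in MI and 0.793 and 0.256 FPKM in GSK.

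PRC1, the second Polycomb complex, which reads H3K27me3 and compacts chromatin, had 20 tested genes with a median log2 difference of 0.07. At an unadjusted p under 0.05, 4 were higher (20%, beside 7.57% of all genes) and 0 lower. The 4 were Cbx7 (0.34), a reader of the mark, Bmi1 (0.33), a ring finger subunit, Phc3 (0.24), which polymerises, and Bcor (0.22), a partner of a variant complex, and in each the groups overlapped. Bmi1 was highest in GSK replicates 3 and 4 and in MI replicate 4, at 16.4, 16.2 and 13.8 FPKM, and its log2 difference was 0.07 with the mitochondrial share as a covariate. Without the 3 libraries of that share 1 of the 20 was higher and 1 lower, and with 1 library left out 1 to 4 were higher, fewest without MI replicate 3 or GSK replicate 4.

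The enzymes that act against PRC2 had mostly positive differences. Of the 14 demethylases of H3K27, methyltransferases of H3K4 and H3K36 and acetyltransferases of H3K27, all tested, 13 had a positive difference, with a median of 0.16. At an unadjusted p under 0.05, 5 were higher (35.7%, beside 7.57% of all genes) and 0 lower, and 4 did not overlap. Kmt2c, which marks enhancers, stood at 2.43, 2.62, 2.12, 2.52 and 2.26 FPKM in MI and at 3.09, 3.05, 4.23, 4.15 and 3.08 FPKM in GSK, beside 3.71 ± 0.0301 (SD, n = 5) in Sham. All GSK libraries lay above all MI libraries, and the log2 difference was 0.41 with a standard error of 0.10 (limma adjusted p = 0.285), or 0.28 without the 3 libraries of high mitochondrial share. Kmt2a and the acetyltransferases Ep300 and Crebbp also did not overlap, with log2 differences of 0.25, 0.23 and 0.16. With the transcripts of the mitochondrial genome dropped and library totals equalised, none of the 14 was free of overlap and 3 were higher. The count of 5 was 2 without those 3 libraries, and 3 to 5 with 1 library left out. These are long genes, and the difference by gene length given further on touches them. The demethylases Kdm6a and Kdm6b overlapped between groups, with log2 differences of 0.25 and 0.13, and the first was 0.01 with the mitochondrial share as a covariate.

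Genes known as Polycomb targets in development had a median log2 difference of -0.01, near that of all genes, with members on both sides. Of 38 such genes 22 were tested, 5 were higher (22.7%, beside 7.57% of all genes) and 1 lower at an unadjusted p under 0.05, none without overlap. With the transcripts of the mitochondrial genome dropped and library totals equalised 6 were higher and 0 lower, and without the 3 libraries of high mitochondrial share both counts were 0. Tbx3, a repressor of the conduction system, ran from 0.938 to 2.46 FPKM in MI and from 1.53 to 2.97 FPKM in GSK, a log2 difference of 0.50. Meis2, a homeobox factor, had 0.32 and stood at 2.27 to 2.42 FPKM in 4 GSK libraries and at 1.52 FPKM in GSK replicate 5, inside the MI range. The cyclin-dependent kinase inhibitors went to opposite sides: Cdkn1c had a log2 difference of 0.35 and Cdkn1a, which p53 induces, -0.30, with overlapping groups. The other 16 of the 38 genes did not reach the level for testing. A gene silent in MI would have been tested only if it reached 1 FPKM in all 5 GSK libraries.

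**Figure D3:**
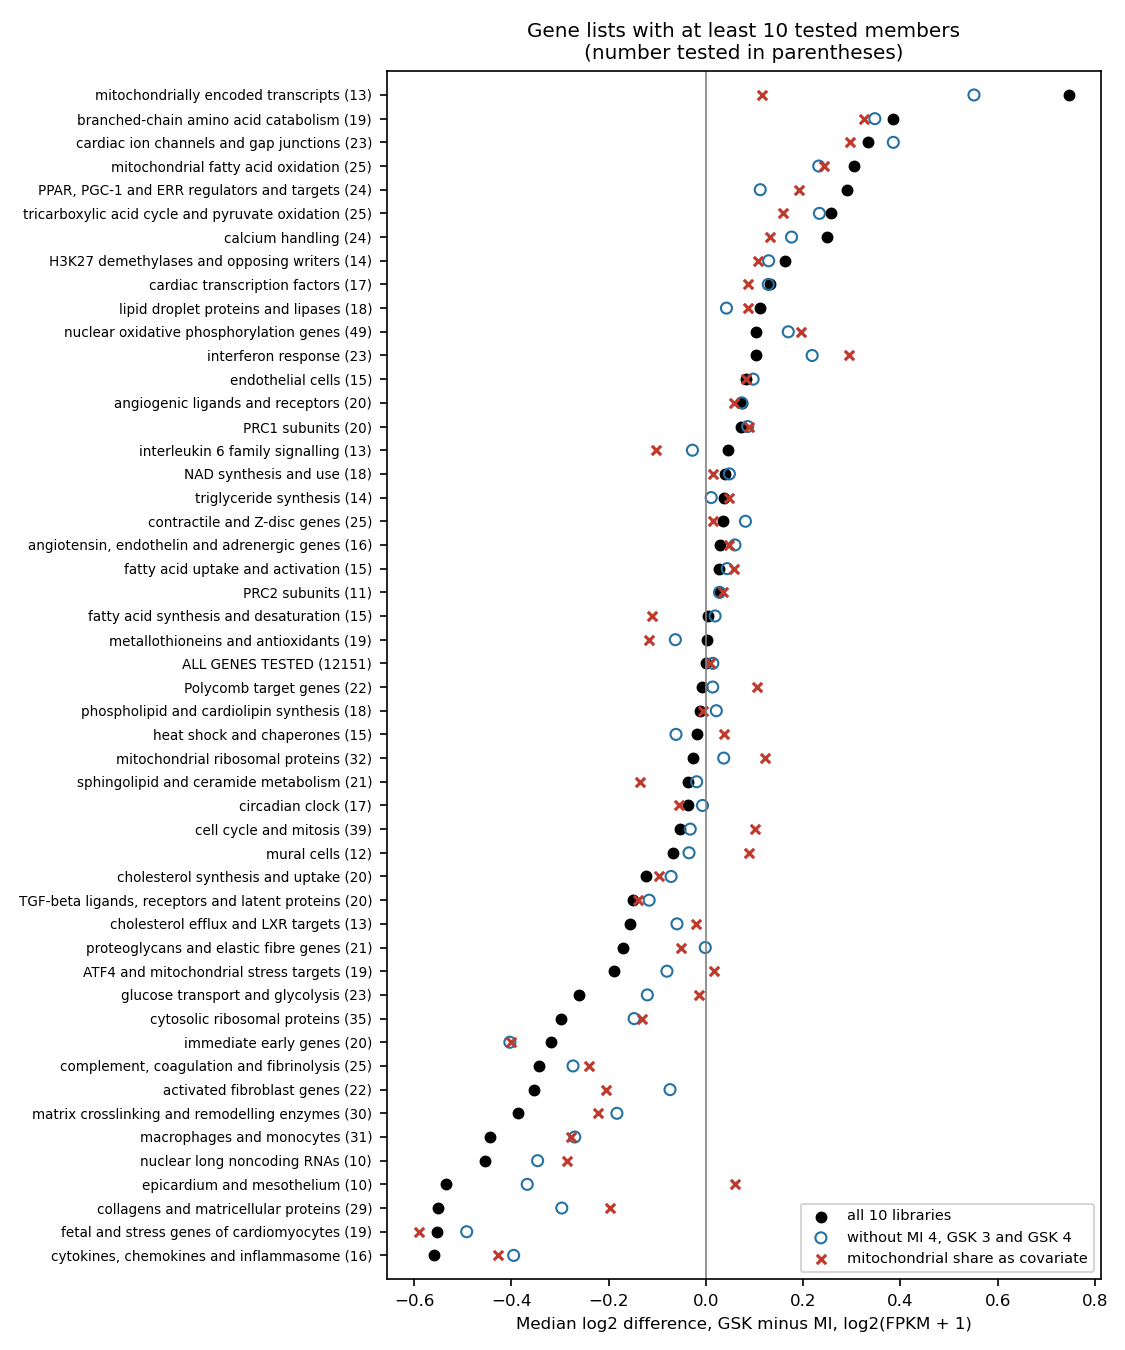
Median log2 difference, GSK minus MI, of the tested members of each gene list with at least 10 of them, with the number tested in parentheses: black for all 10 libraries, open blue without MI replicate 4 and GSK replicates 3 and 4, red crosses with the mitochondrial share as a covariate. The black points run from -0.56 for cytokines to 0.75 for mitochondrially encoded transcripts, and of the lists with a black point beyond 0.2 on either side most have both alternatives nearer to 0.

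Genes of fatty acid oxidation had mostly positive differences with overlapping libraries. Of 25 genes 22 had a positive difference with a median of 0.31, but 1 was higher (4%, below the 7.57% of all genes) and 0 lower at an unadjusted p under 0.05. Acadm, the medium-chain dehydrogenase, stood at 173, 103, 138, 157 and 191 FPKM in MI and at 178, 248, 212, 205 and 155 FPKM in GSK, a log2 difference of 0.40. Acaa2, the last thiolase of the cycle, ran from 125 to 390 FPKM in MI and from 197 to 394 FPKM in GSK, so the groups covered the same range. Cpt1b, the muscle gate of fatty acid entry, had a log2 difference of -0.07, which was 0.49 with the mitochondrial share as a covariate. The list median was 0.12 without MI replicate 2, the lowest library for Acadm and Acaa2.

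The regulators above these genes had more members at low p. Of 24 tested PPAR, PGC-1 and ERR genes and targets, 7 were higher (29.2%, beside 7.57% of all genes) and 1 lower at an unadjusted p under 0.05. The median was 0.29, or 0.11 with 2 higher and 2 lower without the 3 libraries of high mitochondrial share. The count of 7 ran from 4, without MI replicate 2 or 3 or GSK replicate 2 or 3, to 10 without MI replicate 1. Ppara, the receptor that fatty acids activate, stood at 4.89, 3.24, 3.81, 4.62 and 8.04 FPKM in MI and at 7.67, 8.04, 9.45, 8.8 and 5.92 FPKM in GSK, beside 12.9 FPKM in Sham. MI replicate 5 exceeded GSK replicates 1 and 5, and the log2 difference was 0.64 with a standard error of 0.19 (limma adjusted p = 0.285). Ppargc1a, the coactivator of mitochondrial biogenesis, and Esrrg, an orphan receptor that works with it, had 0.64 and 0.59. Gabpa, a factor for nuclear genes of respiration, had 0.41 without overlap, from 6.59 to 8.83 FPKM in MI and from 9.04 to 11.9 FPKM in GSK. The targets were less even: Pdk4, which blocks pyruvate oxidation, had a log2 difference of 0.50 that turned to -0.50 without the 3 libraries of high mitochondrial share, Ucp3 had 0.88 and 0.02, and Angptl4, an inhibitor of lipoprotein lipase, had -0.90 and -1.81.

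Lipid handling outside the mitochondrion held isolated genes. Ces1d, a carboxylesterase that acts as a triglyceride lipase, stood at 21.1, 1.1, 3.82, 4.26 and 4.65 FPKM in MI and at 13.1, 29.1, 38.4, 22 and 11.3 FPKM in GSK, beside 85.3 ± 26 (SD, n = 5) in Sham. MI replicate 1 alone reached the GSK range, the log2 difference was 1.89 with a standard error of 0.54 (limma adjusted p = 0.285), and fragments may be shared with its neighbouring relatives. Lpl and Vldlr, which deliver fatty acids from lipoproteins, had log2 differences of 0.65 and 0.63, and Cd36, a fatty acid carrier, 0.40 with overlap. With the mitochondrial share as a covariate these were 0.17, 0.31 and -0.02. Chpt1, which makes phosphatidylcholine, did not overlap, from 21.5 to 31.4 FPKM in MI and from 32.6 to 39.6 FPKM in GSK (log2 difference 0.54). Pgs1, which starts cardiolipin synthesis, did not overlap on the lower side, from 6.16 to 7.77 FPKM in MI and from 4.83 to 5.57 FPKM in GSK (log2 difference -0.35). Apoe had -0.72, with GSK replicate 1 at 520 FPKM inside the MI range. Plin5, which coats lipid droplets, had 0.36 with overlap.

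Branched-chain amino acid breakdown was the nuclear pathway with the most even shift over its members, though not over the libraries. All 19 genes were tested and all 19 differences were positive, with 1 without overlap and a median of 0.38. At an unadjusted p under 0.05, 9 were higher (47.4%, beside 7.57% of all genes) and 0 lower. By library, the median deviation of the members from their mean over the 10 libraries was 0.40, 0.31 and 0.33 in GSK replicates 2, 3 and 4. It was -0.011 and -0.044 in GSK replicates 1 and 5, below MI replicates 1 and 5 at 0.026 and 0.12. MI replicate 2 was lowest at -0.71. Dbt, the acyltransferase of the branched-chain dehydrogenase, stood at 12.2, 8.21, 9.96, 14.1 and 12 FPKM in MI and at 15, 18.4, 23, 22.9 and 14.1 FPKM in GSK, and only MI replicate 4 and GSK replicate 5 met. Mut, the mutase that feeds propionate to the citric acid cycle, did not overlap, from 12.9 to 21.8 FPKM in MI and from 22.1 to 27.8 FPKM in GSK. Ppm1k, the phosphatase that activates the dehydrogenase, and Acadsb had log2 differences of 0.77 and 0.38. The list median was 0.35 and 4 genes stayed higher without the 3 libraries of high mitochondrial share, and it was 0.19 with 5 higher without MI replicate 2. The count was 5 also without MI replicate 3 or GSK replicate 2 or 3. With the mitochondrial share as a covariate 3 were higher, with a median of 0.33. The citric acid cycle list had a median of 0.26 with 3 of 25 higher (12%, beside 7.57% of all genes). These were 0.12 with 1 higher without MI replicate 2, and 0 were higher without the 3 libraries or with the covariate. Oxct1, which lets the heart burn ketone bodies, had a log2 difference of 0.56.

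The 13 mitochondrially encoded transcripts all had positive differences, 8 of them (61.5%, beside 7.57% of all genes) at an unadjusted p under 0.05, with a median of 0.75. The 49 nuclear genes of oxidative phosphorylation had a median of 0.10 with 1 higher (2.04%) and 0 lower, and a median of -0.043 without MI replicate 2. The difference between these lists was not tested. The mitochondrial median was 0.55 without the 3 libraries chosen for that very share, 0.25 after quantile normalization and 0.12 with the share as a covariate. The nuclear list had 0.17, 0.13 and 0.20. The share is summed from mitochondrially encoded genes, these transcripts among them. The covariate was therefore bound to lower their median, and this setting cannot compare the lists. The count of 8 ran from 2, without MI replicate 3 or GSK replicate 4, to 11 without MI replicate 4. The part of the libraries' mitochondrial share in these values was not tested. Glycolysis stood on the lower side, with 5 of 23 lower (21.7%, beside 7.3% of all genes), 1 higher and a median of -0.26. Eno1 ran from 36.6 to 62.9 FPKM in MI and from 28.6 to 36.7 FPKM in GSK, and Pfkp from 10.5 to 20.9 FPKM and from 6.27 to 13.6 FPKM. That median was -0.12, with 2 lower, without the 3 libraries of high mitochondrial share. With the share as a covariate it was -0.013, also with 2 lower. The count of 5 ran from 2, without GSK replicate 3 or 4, to 9 without GSK replicate 2.

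Stress genes of cardiomyocytes stood lower in GSK except in replicate 5. Of 19 tested, 18 had a negative difference, 1 did not overlap, and the median was -0.55. At an unadjusted p under 0.05, 7 were lower (36.8%, beside 7.3% of all genes) and 0 higher. Without the 3 libraries of high mitochondrial share the median was -0.49 and 0 were lower, and without GSK replicate 5 the count was 14. Nmrk2, a nicotinamide riboside kinase of injured muscle, stood at 28.3, 281, 138, 244 and 84.6 FPKM in MI and at 21.8, 15.5, 16, 12.2 and 78.8 FPKM in GSK, beside 6.11 ± 2.19 (SD, n = 5) in Sham. The order recurred in other genes of the list: MI replicate 1 lay near the GSK libraries and GSK replicate 5 lay in the MI range. Its log2 difference was -2.36 with a standard error of 0.64 (limma adjusted p = 0.285), and -1.68 without the 3 libraries of high mitochondrial share. Sprr1a, a stress protein of the infarct border, had a log2 difference of -2.45, from 4.85 to 115 FPKM in MI and from 1.39 to 9.34 FPKM in GSK. Csrp3, a sensor of stretch at the Z-disc, did not overlap, from 519 to 722 FPKM in MI and from 380 to 507 FPKM in GSK (log2 difference -0.50). Fhl1, another stretch sensor, and the intermediate filament Des had -1.27 and -0.79.

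The classical markers of load were too scattered to order the groups. Nppa, atrial natriuretic peptide, stood at 819, 2022, 1317, 1363 and 275 FPKM in MI and at 1678, 217, 225, 229 and 1319 FPKM in GSK, a log2 difference of -1.01 with a standard error of 0.71 (limma adjusted p = 0.495). Its value was -0.17 without the 3 libraries of high mitochondrial share, and the atrial markers named above also varied between libraries; their part in the result was not tested. Nppb, the B-type peptide, and Ankrd1, a titin-associated stress protein, had log2 differences of -0.87 and -0.54, with GSK replicate 5 at 974 and 2970 FPKM. Myh7 and Myh6, the fetal and adult heavy chains, had -0.16 and 0.39 with full overlap. The 25 contractile and Z-disc genes had a median of 0.04, with 2 higher and 2 lower, 8% each way and near the 7.57% and 7.3% of all genes.

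Calcium handling and ion channels stood higher. Of 24 calcium genes 10 were higher (41.7%, beside 7.57% of all genes) and 0 lower at an unadjusted p under 0.05, none without overlap, with a median of 0.25. Without the 3 libraries of high mitochondrial share 2 were higher, with a median of 0.18, and 4 were higher without MI replicate 2. Atp2a2, the pump that returns calcium to the sarcoplasmic reticulum, stood at 1636, 545, 903, 1014 and 1267 FPKM in MI and at 1377, 2131, 2207, 2019 and 1299 FPKM in GSK, beside 2741 FPKM in Sham. MI replicate 1 exceeded GSK replicates 1 and 5, and the log2 difference was 0.81 with a standard error of 0.29 (limma adjusted p = 0.293). Its brake Pln and the release channel Ryr2 had 0.97 and 0.53. Of 23 channel and gap junction genes 9 were higher (39.1%) and 0 lower, with a median of 0.33. The count was 2 without those 3 libraries and 5 without GSK replicate 2 or 4. Abcc9, the regulatory subunit of the ATP-sensitive potassium channel, had 0.83, Kcnj3, an inward rectifier, 0.83, Hcn4, the pacemaker channel, 1.01, and Cacna1g, a T-type calcium channel, 0.74. For Hcn4, MI replicate 1 at 2.83 FPKM lay above GSK replicates 1 and 5 at 2.35 and 1.21 FPKM. With the mitochondrial share as a covariate 2 genes of the calcium list and 2 of the channel list were higher, with medians of 0.13 and 0.30. Long genes such as Ryr2 are on these lists, and the difference by gene length given further on touches them. Rpl3l, the muscle form of a ribosomal protein, had a log2 difference of 1.09 and its ubiquitous relative Rpl3 -0.62, both with overlap and both possibly sharing fragments with near copies.

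**Figure D4:**
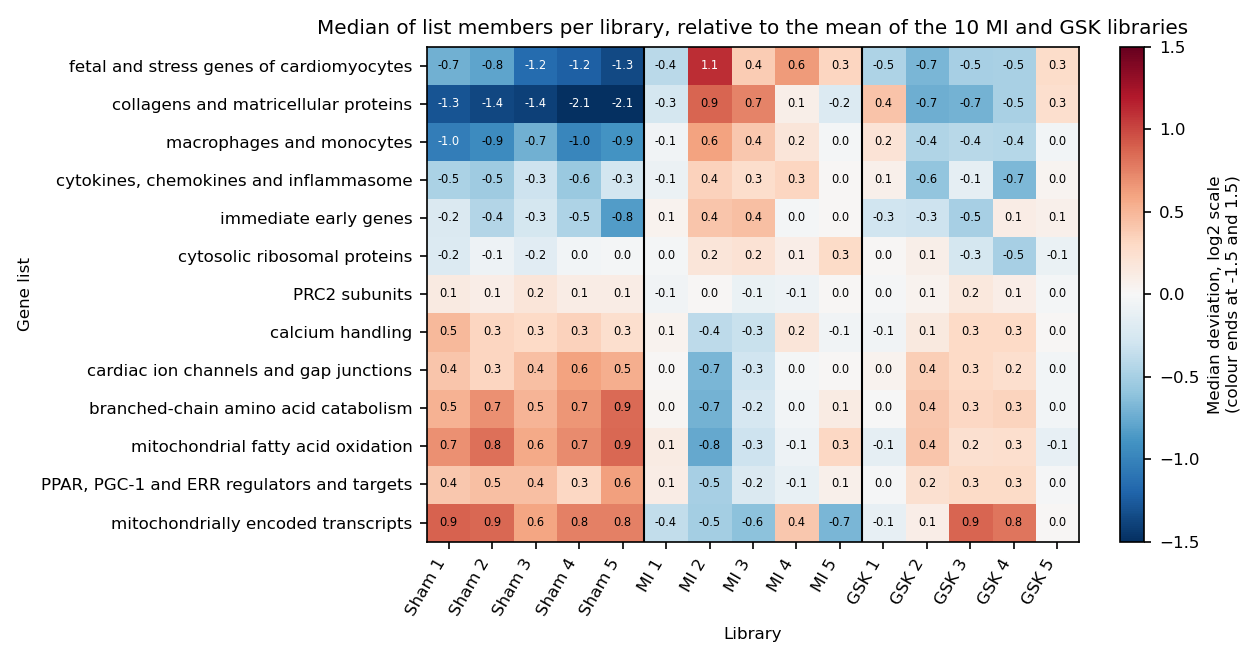
Each cell gives the median over the tested members of a gene list of the log2(FPKM + 1) deviation of a library from the mean of the 10 MI and GSK libraries, with colours ending at -1.5 and 1.5. MI replicate 2 has the highest values for stress and collagen lists and for macrophages and the lowest for calcium handling and fatty acid oxidation, GSK replicates 2, 3 and 4 show the reverse, and GSK replicates 1 and 5 stand between them.

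Genes of the scar had mostly negative differences, and the GSK libraries were split among themselves. Of 29 tested collagens and matricellular proteins 28 had a negative difference and the median was -0.55, yet 2 were lower (6.9%, near the 7.3% of all genes) and 0 higher at an unadjusted p under 0.05. Col1a1 stood at 124, 322, 434, 138 and 142 FPKM in MI and at 393, 62, 64.7, 65.8 and 172 FPKM in GSK, beside 27.1 FPKM in Sham. GSK replicates 2, 3 and 4 lay below every MI library, while GSK replicate 1 was second only to MI replicate 3. The difference on the log2 scale was -0.84 with a standard error of 0.55 (limma adjusted p = 0.46), and -1.29 without GSK replicate 1. Col3a1 and Postn, the matricellular protein of activated fibroblasts, showed the same split with -0.80 and -0.85. Tnc, which appears at the border of wounds, had -1.51, from 4.81 to 17.9 FPKM in MI and from 1.37 to 11.8 FPKM in GSK. The list median was -0.30 without the 3 libraries of high mitochondrial share, and 0 genes were then lower at an unadjusted p under 0.05. Without GSK replicate 1, 13 were lower.

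Among 30 tested enzymes and inhibitors of matrix remodelling 6 were lower (20%, beside 7.3% of all genes) and 0 higher, with a median of -0.39. The count of 6 was 1 without the 3 libraries of high mitochondrial share, 2 without MI replicate 2 and 14 without GSK replicate 1. Timp1, an inhibitor of matrix proteases, stood at 36.9, 282, 120, 84.8 and 87.2 FPKM in MI and at 61.8, 16.1, 19.5, 15.4 and 70.9 FPKM in GSK. MI replicate 1 lay below GSK replicates 1 and 5, and the log2 difference was -1.71 with a standard error of 0.56 (limma adjusted p = 0.288). Tgfb1, the main fibrogenic cytokine, had a log2 difference of -0.49. Prelp, a leucine-rich proteoglycan, stood on the other side with 0.55. Pdgfra, a marker of fibroblasts in general, stood at 8.02 ± 1.55 FPKM (SD, n = 5) in MI and 8.29 ± 0.981 FPKM (SD, n = 5) in GSK.

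Macrophage genes, the largest cell-type list, had the most members at low p by count. By share the small lists of neutrophils (4 tested) and red blood cells (5 tested) had more lower, at 100% and 80%. Of 31 tested macrophage genes, 28 had a negative difference, and the median was -0.44. The 1 member without overlap was Chil3, which entered the test only through the MI libraries, where it is high. At an unadjusted p under 0.05, 14 were lower (45.2%, beside 7.3% of all genes), Chil3 among them, and 1 higher. The summed level of the macrophage list ran from 1332 to 2100 FPKM in MI, from 967 to 1712 FPKM in GSK and from 772 to 849 FPKM in Sham. Cd68, a lysosomal protein of macrophages, stood at 18.5, 40.4, 27.6, 28.6 and 26.7 FPKM in MI and at 18.1, 14.3, 17, 11 and 18.5 FPKM in GSK. The groups met only at MI replicate 1 and GSK replicate 5, and the log2 difference was -0.79 with a standard error of 0.20 (limma adjusted p = 0.285). Lgals3 (-1.26), Cd14 (-0.57) and the secreted phosphoprotein Spp1 (-0.90, and -0.13 without MI replicate 2) followed with overlap. Arg1, an enzyme of wound macrophages, Trem2, a lipid receptor, and Ccr2, the receptor of recruited monocytes, had -1.32, -0.78 and -0.63. The single gene on the higher side was Timd4, a marker of resident macrophages, with 0.30. Without the 3 libraries of high mitochondrial share the median was -0.27, with 3 lower and 0 higher, and 7 were lower without MI replicate 2 or 3 or GSK replicate 4.

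Other immune lists lay on the same side, apart from the interferon genes. Of 32 cytokines, chemokines and inflammasome genes 16 were tested and 6 were lower (37.5%, beside 7.3% of all genes) and 0 higher, with a median of -0.56. Without the 3 libraries of high mitochondrial share 1 was lower. Ccl2, which draws monocytes, ran from 5.66 to 25.5 FPKM in MI and from 3.31 to 9.14 FPKM in GSK (log2 difference -1.19), and Cxcl14 from 3.12 to 9.31 FPKM and from 1.66 to 4 FPKM. Neutrophil genes were near the level for testing, which 4 of 15 reached. S100a8, Csf3r and Clec4d reached 1 FPKM in all 5 MI libraries but in only 1 or 2 GSK libraries, so their direction was partly set by the filter, and with the mitochondrial share as a covariate 0 of the 4 had an unadjusted p under 0.05. S100a8, a calcium-binding protein of neutrophils, stood at 1.88, 3.24, 1.73, 1.52 and 4.3 FPKM in MI and at 2.37, 0.544, 0.393, 0.738 and 0.852 FPKM in GSK, so that GSK replicate 1 lay inside the MI range. Complement and fibrinolysis had 8 of 25 lower (32%, beside 7.3% of all genes), Clu (-0.73) and the urokinase Plau (-0.53) among them, and 0 higher, with a median of -0.34. The count lower was 1 without those 3 libraries, 4 without MI replicate 2 or 3 and 13 without GSK replicate 1. The 23 tested interferon genes had a median of 0.10 with 21 positive, and 1 of them, Ifit2, at an unadjusted p under 0.05, from 4.25 to 8.95 FPKM in MI and from 7.6 to 12.5 FPKM in GSK. Without MI replicate 1 the interferon count was 8 higher. Lymphocytes were represented by 2 tested genes of 21, and Igkc, the kappa chain of antibodies, stood at 70.5 FPKM in MI replicate 3 and 85.8 FPKM in GSK replicate 3 against 1.81 to 17 FPKM in the other 8 libraries.

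Marker lists that bear on blood content and dissection differed as well. Red blood cell genes had 4 of 5 tested lower (80%, beside 7.3% of all genes) and 0 higher, with a median of -0.77. This was -0.35, with 0 lower, without the 3 libraries of high mitochondrial share. Their sum ran from 328 to 471 FPKM in MI, from 103 to 442 FPKM in GSK and from 98.2 to 438 FPKM in Sham. Alas2, which starts heme synthesis in red cell precursors, had a log2 difference of -0.58. Epicardium and mesothelium had 3 of 10 lower (30%) and 0 higher with a median of -0.54. Aldh1a2, which makes retinoic acid in the epicardium, stood at 10.2, 37.1, 18.4, 24.7 and 29.1 FPKM in MI and at 7.19, 4.19, 5.16, 3.06 and 14.3 FPKM in GSK, so that MI replicate 1 and GSK replicate 5 crossed. Its log2 difference was -1.73 with a standard error of 0.38 (limma adjusted p = 0.285), and Krt8, a keratin of mesothelium, had -0.73. The summed level of that list ran from 81.4 to 205.0 FPKM in MI, from 35.7 to 97.2 FPKM in GSK and from 36.2 to 100.4 FPKM in Sham, no member of either list was at 0 in all 15 libraries, and the median of the epicardial list was 0.06 with the mitochondrial share as a covariate. Atrial markers had a median of 0.92, or 1.25 without the 3 libraries of high mitochondrial share, with 6 of 8 tested genes positive and 0 at an unadjusted p under 0.05 (4 higher without MI replicate 1), and sums from 398 to 2223 FPKM in MI and from 437 to 2332 FPKM in GSK. Their part in the values of Hcn4, Kcnj3, Cacna1g and Tbx3 was not tested. The part of blood content and of the sampled tissue in the immune and matrix values was not tested. Endothelial genes had a median of 0.08 and 0 of 15 at an unadjusted p under 0.05.

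Immediate early genes, which react to handling as well as to stress, had 6 of 20 lower (30%, beside 7.3% of all genes) and 0 higher with a median of -0.32. Junb ran from 18.9 to 35.7 FPKM in MI and from 8.97 to 21 FPKM in GSK, and Atf3 from 3.18 to 13.7 FPKM and from 2.45 to 4.67 FPKM. This list was as low without the 3 libraries of high mitochondrial share, with a median of -0.40 and 5 lower, although 3 were lower without MI replicate 2 or 3 or GSK replicate 1 or 2 and 11 without GSK replicate 4. Cytosolic ribosomal proteins had 34 of 35 negative differences with a median of -0.30, 7 lower (20%) and 1 higher, and a median of -0.15 with 0 lower without those 3 libraries. The count of 7 ran from 1, without MI replicate 3 or 5 or GSK replicate 3 or 4, to 15 without GSK replicate 2. Rps14 did not overlap, from 230 to 257 FPKM in MI and from 152 to 214 FPKM in GSK. Cell cycle genes had a median of -0.05, and among them was Ccnd2, a cyclin of the entry into the cycle, which did not overlap on the higher side with a log2 difference of 0.41.

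Among long noncoding RNAs Neat1, the scaffold of nuclear paraspeckles, stood at 48.4, 62, 53.2, 38.2 and 44.8 FPKM in MI and at 36.4, 28.7, 24, 19.8 and 30.9 FPKM in GSK, beside 39.6 ± 6.17 (SD, n = 5) in Sham. All GSK libraries lay below all MI libraries, and below the Sham mean as well. This gave a log2 difference of -0.81 with a standard error of 0.17 (limma adjusted p = 0.285), and -0.68 without the 3 libraries of high mitochondrial share. Its neighbour Malat1, also nuclear, had 0.25 with overlap. Of 10 tested nuclear noncoding RNAs 4 were lower (40%, beside 7.3% of all genes) and 0 higher, 2 without overlap (2 lower without GSK replicate 3, 8 without GSK replicate 1), the other being Snhg1 (-0.38), a host of small nucleolar RNAs.

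The difference followed the length of genes. The 3641 tested genes that span under 10 kb of the genome had a median log2 difference of -0.079, with 4.72% higher and 11.5% lower at an unadjusted p under 0.05. The 1398 genes over 100 kb had a median of 0.103, with 18.3% higher and 2.43% lower. The median span was 88.5 kb for genes without overlap that were higher and had a promoter entry, 15.7 kb for those lower, and 23.3 kb for all tested genes with an entry. The difference between the longest and shortest class also varied within groups and, among the MI and GSK libraries, with the mitochondrial share. It was 0.229 and 0.285 in GSK replicates 3 and 4 and 0.111 in MI replicate 4. It was -0.214 and -0.271 in MI replicates 3 and 5, the libraries with the lowest share. The Sham libraries did not follow this relation: at shares of 41.2% to 42.2% they ran from -0.087 to 0.028, below MI replicate 4. The order of the classes remained without the 3 libraries of high mitochondrial share, at -0.027 and 0.091, and was absent with the share as a covariate, at 0.033 and 0.027. Long genes such as Zbtb20, Tnrc6b, Kmt2c and Ryr2 stand on the higher side and short ones such as Rps14 and Aprt on the lower side. Whether RNA quality differed between the libraries was not tested beyond these values.

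**Figure D5:**
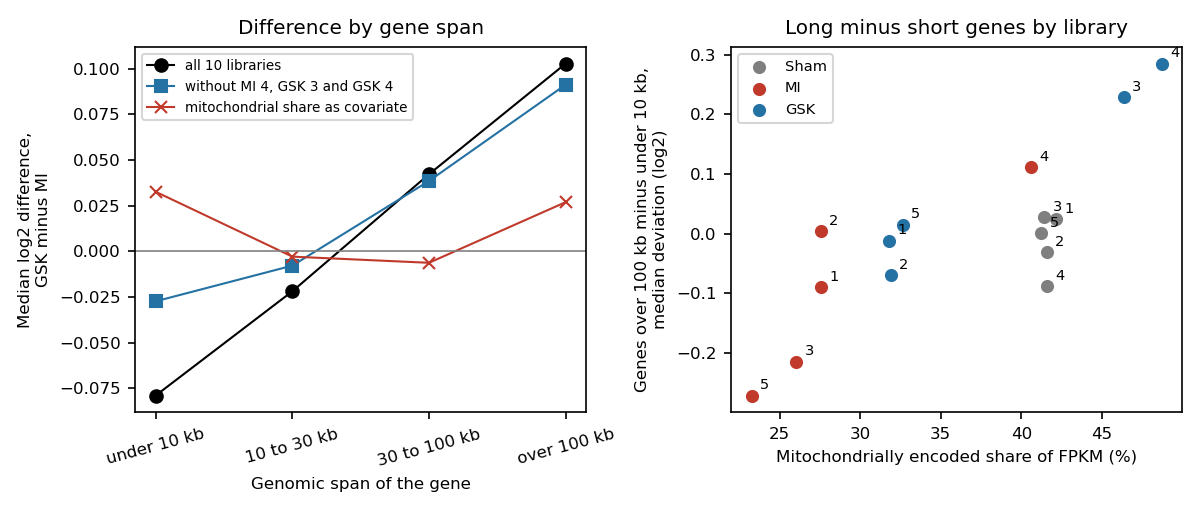
Left, the median log2 difference, GSK minus MI, in 4 classes of genomic span for all 10 libraries, without MI replicate 4 and GSK replicates 3 and 4, and with the mitochondrial share as a covariate; the first 2 lines climb from the shortest to the longest class and the covariate line does not. Right, the median deviation of genes over 100 kb minus that of genes under 10 kb (log2) against the mitochondrial share (%) in each library, with GSK replicates 3 and 4 at the top right and MI replicate 5 at the bottom left.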

How the data were processed

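The authors deposited FPKM values for 54532 genes. Mapping and counting tools named in the submitters' processing notes are HISAT2, Subread's featureCounts and DESeq2 under R 3.5.1, and the build there is mm10; their roles are not given. Groups follow the sample names. Each FPKM times the deposited gene length was a whole multiple of a step per library for 100% of values, within 0.01, which gave back the fragments behind it. A level of 1 FPKM reached by 5 or more of the 10 libraries let a gene into the fit of log2(FPKM + 1) on 2 group means with limma 3.58.1 in R 4.3.3 (eBayes with trend), and a call needed a Benjamini-Hochberg adjusted p under 0.05. The fit was tested on simulated data. Libraries are taken as separate hearts except the 2 mixed Sham libraries; otherwise p-values measure only the spread between these libraries. The 59 gene lists, the members and the tests were chosen with earlier results of these data known. Named genes are the 12 coding genes with the largest difference each way among those without overlap and with an unadjusted p under 0.05, the 5 coding genes of lowest p each way, all PRC2 genes, a set of heart, lipid and matrix genes, and for each list described about 4 members, as a rule those of lowest p; others beside them, noncoding genes included, were picked after their values were seen. A few genes under these rules are not reported here. Alternatives changed the pseudocount, filter, scaling, fit, covariate, block, weights, unit and libraries.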

Additional observations from a re-analysis of the deposited data

Results flagged for a closer look

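In groups of 5, a library was picked out where its gap to the nearest other exceeded Dixon's 95% critical value times the group's range. Of 268 groups looked at, the MI and GSK values of the named genes and the library measures, 27 (10.1%) were picked out; chance alone picks out about 1 in 20, and groups of related genes are not independent. MI replicate 4 stood apart in the mitochondrial share of FPKM, at 40.6% against 23.2% to 27.6%, and in its fragments on genes, at 21.5 against 23.8 to 24.7 times 1000000. GSK replicate 1 was the highest of its group, in FPKM, for S100a8 at 2.37 (others 0.393 to 0.852). GSK replicate 2 was the highest of its group, in FPKM, for Myh6 at 3102 (others 2085 to 2339). GSK replicate 4 was the lowest of its group, in FPKM, for Rps14 at 152 (others 199 to 214). GSK replicate 5 was the highest of its group, in FPKM, for Nppb at 974 (others 261 to 454), Ankrd1 at 2969.8 (others 1161 to 1604), Nmrk2 at 78.8 (others 12.2 to 21.8) and Des at 628 (others 384 to 436). GSK replicate 5 was the lowest of its group, in FPKM, for Cpxm2 at 6.79 (others 8.86 to 9.46) and Meis2 at 1.52 (others 2.27 to 2.42). MI replicate 1 was the highest of its group, in FPKM, for Ces1d at 21.1 (others 1.1 to 4.65), Pdk4 at 282 (others 37.5 to 91.5), Ucp3 at 23.5 (others 0.798 to 5.33), Hcn4 at 2.83 (others 0.626 to 1.18) and Cacna1g at 4.43 (others 2.1 to 2.74). MI replicate 1 was the lowest of its group, in FPKM, for Hdac6 at 3.92 (others 4.57 to 4.69). MI replicate 2 was the highest of its group, in FPKM, for Chil3 at 11.5 (others 1.1 to 3.37), Hmox1 at 55.1 (others 15.5 to 25.3), Aebp2 at 5.96 (others 4 to 4.29), Mtf2 at 2.44 (others 1.68 to 1.85), Sprr1a at 115 (others 4.85 to 34.4) and Spp1 at 197 (others 4 to 31). MI replicate 2 was the lowest of its group, in FPKM, for Pde7b at 0.752 (others 1.09 to 1.21). MI replicate 4 was the highest of its group, in FPKM, for Suz12 at 7.59 (others 4.92 to 5.55) and Lpl at 605 (others 261 to 333). MI replicate 4 was the lowest of its group, in FPKM, for Cdkn1c at 2.13 (others 3.03 to 3.31).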

How the results depend on the processing

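The count of calls at an adjusted p under 0.05 was 0 under 11 alternatives to the fit and under each left-out library; the 15-library fit gave 4 higher and the covariate fit 1 higher. Genes at an unadjusted p under 0.05 numbered 1435 higher and 1446 lower with no filter, 460 and 532 with at least 5 FPKM, 562 and 367 with the mitochondrial share as a covariate, and 391 and 248 without the 3 libraries of high share, where fewer genes or libraries enter. Leaving out 1 library gave 491 to 1264 higher and 456 to 1147 lower, fewest without GSK replicate 4. Genes without overlap numbered 216 and 181 with no filter, 56 and 56 with at least 5 FPKM, 541 and 331 without the 3 libraries, 403 and 413 without GSK replicates 1 and 2 (whose names carry another letter, an alternative chosen after seeing the data), and 152 to 449 and 115 to 353 with 1 library left out. Of the genes at an unadjusted p under 0.05, 50.9% were higher as deposited and 60.6% with mitochondrial genes left out and totals equalised. With 1 library left out the mitochondrial share differed by 6.68 points (without GSK replicate 4) to 12.2 points (without MI replicate 4). By gene length, the difference between the longest and shortest genes was -0.00569 with the covariate.

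The replicate block, a fit with the replicate number as a term, gave 691 higher and 698 lower at an unadjusted p under 0.05 and 0 calls; the pairing was checked, and same-numbered libraries had correlated deviations of -0.21, -0.43, -0.40, 0.50 and -0.14, so the numbers do not pair.

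Signs turned in these genes (log2 differences): with the covariate Suz12 (-0.081), Eed (0.026), Phf1 (0.23), Rbbp4 (-0.064), Rbbp7 (-0.14), Cd36 (-0.019) and Cpt1b (0.49); without the 3 libraries Cpt1b (0.059) and Pdk4 (-0.50); for Eed 0.019 with mitochondrial genes left out and 0.0038 with array weights; for Aebp2 -0.051 without GSK replicates 1 and 2. With 1 library left out Eed ran from -0.040 to 0.014, Aebp2 from -0.019 to 0.10, Phf1 from -0.20 to 0.030, Rbbp4 from -0.029 to 0.059, Rbbp7 from -0.051 to 0.12, Cpt1b from -0.27 to 0.092 and Myh7 from -0.47 to 0.12. The cause was not tested.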
